A study of Mus musculus with 4 samples.

Results

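The interleukin-6 (IL-6) family was examined in mouse abdominal aortic grafts through 10 genes chosen by symbol for their place in the pathway. These were the ligand genes Il6, Osm, Lif and Il11, the receptor genes Il6ra, Osmr, Lifr, Il11ra1 and Il6st, and the feedback inhibitor gene Socs3. They were chosen with earlier results of these data known. All 10 were found among the 54752 gene IDs of the deposited count table. Grafts were collected 4 weeks after transplantation and sequenced as total RNA depleted of ribosomal RNA, with 2 libraries labelled ALLO, which the series title lets one read as allografts, and 2 labelled ISO, an abbreviation left unexplained (n = 2 per group throughout). The study set out to profile aortic allografts during chronic rejection. Strain, sex and age of donors and recipients are not in the labels, so donor strain and rejection cannot be told apart here. Nothing states that replicates are different animals, and p-values therefore describe the spread between these samples. Sex-linked transcripts, given below, differ between the ISO libraries, so these are not technical repeats of the same tissue. The spread between the ALLO libraries may still be technical.

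Cytokines of this family share gp130, the receptor subunit encoded by Il6st. IL-6 and IL-11 first meet their own receptor chain (IL-6 receptor alpha or IL-11 receptor alpha) and then signal through gp130. Oncostatin M and LIF signal through gp130 paired with the oncostatin M receptor or the LIF receptor. JAK kinases bound to gp130 activate the transcription factor STAT3. STAT3 in turn induces SOCS3, which binds gp130 and shuts the signal off. The pathway is known for the acute phase response and, in vessel walls, for leukocyte recruitment and growth of smooth muscle cells and fibroblasts.

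Library totals ran from 17532344 to 20194854 counts, and 19987 to 22171 genes had at least 1 count. Sex-linked transcripts set ISO replicate 1 apart: Xist, expressed from the inactive X chromosome, gave 10647 counts there and 8 or fewer elsewhere, and Y-linked Ddx3y gave 0 there and 2105 or more elsewhere. Sex was thus not balanced between the groups, since both ALLO libraries had Ddx3y counts and ISO replicate 1 had none. The part of sex in the differences below was not tested. The 6 smooth muscle markers were present in all libraries and fell in ALLO, from summed levels of 28117 and 28047 CPM (counts scaled to library size and composition) in the ISO libraries to 1151 and 2396. All 6 macrophage and monocyte markers rose, from summed 197 and 82.4 CPM to 2397 and 1814, and all 6 T cell markers rose, from 6.90 and 2.17 to 347 and 272. The sums of 6 neutrophil markers were 131 and 13.9 CPM in ISO replicates 1 and 2 and 299 and 158 in ALLO, with 2 of 6 genes called higher. Of 6 endothelial markers 4 fell. The summed B cell markers were 43.8 and 0.422 CPM in ISO and 304 and 138 CPM in ALLO, without overlap for any of the 6 genes, but none passed. Of all 16498 genes tested, 18.4% were called higher and 14.8% lower at the threshold given below, and 72.5% did not overlap between groups. In such bulk tissue, fewer cells of a type and less RNA per cell cannot be told apart.

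Promoter sequence was available for 9 of the 10 members (RefSeq, GRCm38.p6, which has the coordinates of mm10). Osm was not matched. The promoter of Il6 is shown because this gene was without counts in ISO. Sites upstream of Lif and Socs3 are shown as examples of motif matches, and a further match of Il11 is described without its sequence. Any link between a match and a change in ALLO was not tested. The 250 bases before each start were searched on both strands for TTCNNNGAA (STAT), TGANTCA (AP-1) and GGNNTTTCC (a short form of the NF-kappaB motif), which 7.02%, 6.75% and 4.93% of 32851 promoters held. Capitals mark the matches, and the 2 matches of Il6 do not overlap.
Il6, chr5:30012864-30013113, plus strand: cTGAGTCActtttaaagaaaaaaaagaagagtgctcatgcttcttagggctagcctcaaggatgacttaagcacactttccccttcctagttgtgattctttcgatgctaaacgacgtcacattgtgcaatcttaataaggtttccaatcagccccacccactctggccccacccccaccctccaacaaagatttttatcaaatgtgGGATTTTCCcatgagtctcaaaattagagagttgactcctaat
Lif, chr11:4257329-4257358, plus strand: ccagtcagctgTGACTCAggccatagtggc
Socs3, chr11:117969501-117969530, minus strand: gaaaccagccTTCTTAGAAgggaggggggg
The AP-1 match of Il6 began 249 bases before its start and the NF-kappaB match 43 bases before it. The AP-1 match of Lif began 228 bases and the STAT match of Socs3 154 bases before the start. In the GENCODE M21 annotation no exon covers the Il6 sequence, and the Lif site lies before the annotated start of Lif. The Socs3 site lies within the annotated bounds of Socs3, and 77 of the 250 bases of its window are exonic. A second start of Il11 had an AP-1 match 98 bases upstream, and no other member had a match in its window. The windows of Osmr and Il6ra (250 bases each) and of the first start of Il11ra1 (247 bases) lie in annotated exons, those of Gm42809 for Il6ra. The search there thus covered transcribed sequence. These matches describe letters and do not show that a factor bound there.

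Of the 10 members, 4 were higher in ALLO (Il6, Osm, Il6ra and Socs3), 1 was lower (Il11ra1) and 5 did not pass a Benjamini-Hochberg adjusted p of 0.05 in edgeR's quasi-likelihood test. Across all 16498 genes tested, 33.1% passed, 18.4% higher and 14.8% lower. The members' median log2 change was 1.11, against 0.03 for all genes tested, but the members were chosen with earlier results of these data known. ALLO and ISO libraries did not overlap for 8 of the 10 members, a pattern that 72.5% of all genes tested also showed.

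**Figure D1:**
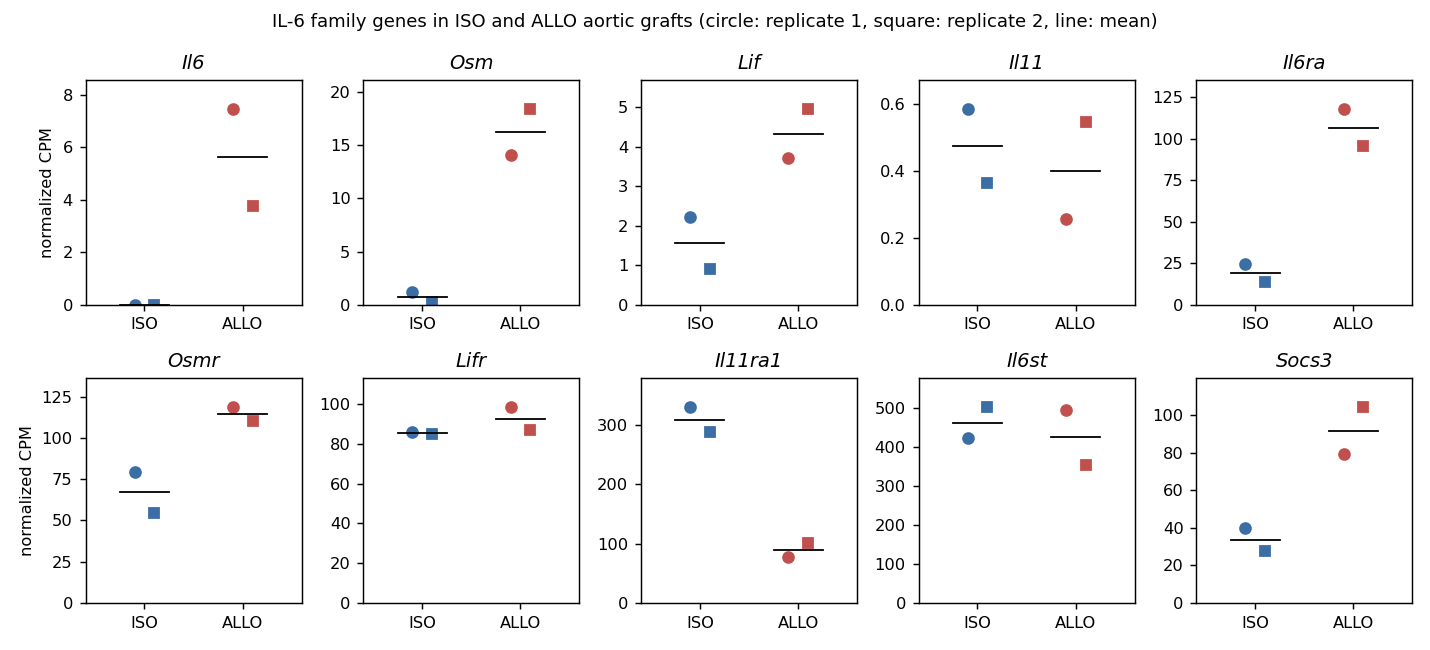
Normalized CPM (vertical axes, from 0, each panel on its own scale) of the 10 genes in the ISO and ALLO libraries, with circles for replicate 1, squares for replicate 2 and a line at the mean of each group. Il6 was at 0 in both ISO libraries, and Il11 and Il6st are the panels in which the groups overlapped.

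The ligand genes Il6 and Osm were the members with the largest rises. Il6 (ENSMUSG00000025746.11, chromosome 5, 30013114 to 30019981), the inflammatory cytokine that gives the family its name, had 0 counts in both ISO libraries and 145 and 83 counts in ALLO replicates 1 and 2, or 7.45 and 3.77 CPM. Against a floor of 6 counts per library (3 read pairs, 0.356 CPM in ISO), Il6 was at least 15.7-fold higher in ALLO (edgeR adjusted p = 0.00936). The bound was 20.9-fold from ALLO replicate 1 alone and 10.6-fold from ALLO replicate 2 alone, so the ALLO libraries themselves differed 1.98-fold.

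Osm (ENSMUSG00000058755.3, chromosome 11, 4236420 to 4241026) encodes oncostatin M, a cytokine made mainly by activated leukocytes. It stood at 1.17 and 0.241 CPM in ISO replicates 1 and 2 (20 and 4 counts) and at 14.1 and 18.4 CPM in the ALLO libraries. Both ALLO libraries lay well above both ISO libraries, with a log2 change of 4.51 ± 0.70 (SE), 22.8-fold (edgeR adjusted p = 0.0104). The size rested on the ISO libraries: leaving out ISO replicate 1 gave 65.1-fold, and leaving out ISO replicate 2 gave 13.7-fold. ISO replicate 1 had the larger macrophage, neutrophil, T cell and B cell marker sums of the ISO pair as well, with 6 of 6 genes of each list above ISO replicate 2. Of 6 genes each, 5 smooth muscle, 5 fibroblast, 4 mast cell, 3 adipocyte and 2 endothelial markers were also above it. The part of any of these cells in the Osm difference was not tested.

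Lif, which encodes leukaemia inhibitory factor, lies 16.5 kb from Osm on chromosome 11 (4257557 to 4272514). Its levels were 2.22 and 0.905 CPM in ISO and 3.70 and 4.95 CPM in ALLO, without overlap, but the log2 change of 1.46 ± 0.59 did not pass (edgeR adjusted p = 0.119). The 2.76-fold change became 4.71-fold without ISO replicate 1 and 1.92-fold without ISO replicate 2, and passed in neither (edgeR adjusted p = 0.0775 and 0.405). The difference between these neighbouring genes in the size of the change was not tested. Il11, encoding a cytokine of fibroblasts and smooth muscle, had 10, 6, 5 and 12 counts in ISO replicates 1 and 2 and ALLO replicates 1 and 2. With counts this close to the floor a difference was not detectable at this depth (log2 change -0.23 ± 0.78, edgeR adjusted p = 0.847).

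Among the receptor genes, Il6ra rose, Il11ra1 fell and the 3 signalling chains Il6st, Lifr and Osmr did not pass. Il6ra (ENSMUSG00000027947.11, chromosome 3, 89864059 to 89913196), the ligand-binding IL-6 receptor found mainly on leukocytes and hepatocytes, was at 24.4 and 13.3 CPM in ISO and at 118 and 95.5 CPM in ALLO. The lowest ALLO value was thus several times the highest ISO value, and the log2 change was 2.50 ± 0.34, 5.64-fold (edgeR adjusted p = 0.00785). Only 2.80% of its exonic bases were shared with another gene, Gm42809, which had 0 counts in every library.

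Il11ra1 (ENSMUSG00000073889.10, chromosome 4, 41699989 to 41769474), the IL-11 receptor alpha chain of mesenchymal cells, was the member that fell. Its levels were 330 and 289 CPM in ISO and 77.0 and 101 CPM in ALLO, a log2 change of -1.79 ± 0.24, 3.46-fold lower (edgeR adjusted p = 0.00727). Of its 4690 transcript windows of 50 bases, 46.3% also occur in Gm13305 or Il11ra2, near-identical copies on the same chromosome. Its level is therefore uncertain, since how multi-mapping reads were counted is not given in the sources used here. The copies themselves had few counts: Il11ra2 had 9 and 35 counts in ISO and 0 in both ALLO libraries, and Gm13305 had 1 and 3 counts in ISO and 0 and 1 in ALLO. Like Il11ra1, all 6 smooth muscle markers and 4 of 6 endothelial markers were lower in ALLO. Of 6 fibroblast markers 1 was lower and 5 did not pass. Over all genes tested, 14.8% were called lower. The part of any of these cell types in the fall of Il11ra1 was not tested.

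Il6st (ENSMUSG00000021756.12, chromosome 13, 112464070 to 112510086), the shared gp130 chain, stood at 423 and 502 CPM in ISO and at 496 and 355 CPM in ALLO. The groups overlapped and the log2 change was -0.12 ± 0.27 (edgeR adjusted p = 0.763), with a positive sign when libraries were scaled by size alone (0.06) or ALLO replicate 2 was left out (0.11). Lifr (ENSMUSG00000054263.12, chromosome 15, 7090614 to 7197489), the LIF receptor chain, gave 85.9 and 84.8 CPM in ISO and 98.3 and 86.9 CPM in ALLO. The ALLO values lay just above the ISO values, with a log2 change of 0.12 ± 0.18 (edgeR adjusted p = 0.650).

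Osmr (ENSMUSG00000022146.12, chromosome 15, 6813577 to 6874969), the oncostatin M receptor chain that lies 216 kb from Lifr, was at 79.2 and 54.7 CPM in ISO and at 118 and 110 CPM in ALLO. Without overlap between groups, its log2 change of 0.77 ± 0.24 missed the threshold (edgeR adjusted p = 0.0621). The Osmr call depended on the method: it passed with the DESeq2 Wald test (adjusted p = 0.0266), limma-voom (0.0448), scaling by library size alone (0.0320) and after removal of immunoglobulin and T cell receptor genes (0.0435), and was farthest from passing without ISO replicate 2 (edgeR adjusted p = 0.393).

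Socs3 (ENSMUSG00000053113.3, chromosome 11, 117966079 to 117970047), the STAT3-induced inhibitor of gp130, was at 39.6 and 27.5 CPM in ISO and at 79.3 and 104 CPM in ALLO. All ALLO values exceeded all ISO values, and the log2 change was 1.45 ± 0.26 (SE), 2.73-fold (edgeR adjusted p = 0.0152). The call was lost without ISO replicate 2 (2.28-fold, edgeR adjusted p = 0.0524).

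**Figure D2:**
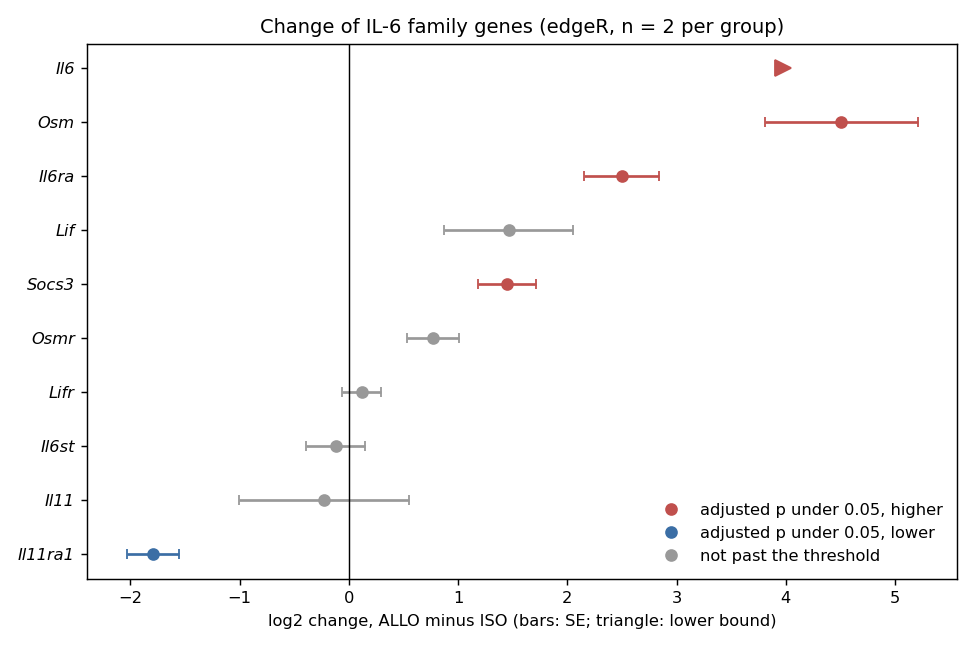
Log2 change (ALLO minus ISO, horizontal axis) of the 10 genes in edgeR's fit, with bars for the SE, red for higher and blue for lower at an adjusted p under 0.05, and grey otherwise. The triangle of Il6 marks its lower bound of 15.7-fold, since it was at 0 in ISO, and Il11ra1 at -1.79 is the gene called lower.

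Levels of different genes were compared per kilobase of exon. In ISO the order was Il11ra1 (69.1 ± 6.48 CPM per kb, SD), Il6st (41.7 ± 5.06), Socs3 (11.6 ± 2.97), Lifr (7.92 ± 0.0719), Osmr (5.53 ± 1.43), Il6ra (2.19 ± 0.908), Lif (0.359 ± 0.214), Osm (0.310 ± 0.289) and Il11 (0.227 ± 0.0756), with Il6 at 0. The levels of Lif and Osm, and those of Osm and Il11, overlapped between the ISO libraries. In ALLO the order became Il6st (38.3 ± 8.97 CPM per kb, SD), Socs3 (31.7 ± 6.04), Il11ra1 (20.0 ± 3.85), Il6ra (12.3 ± 1.83), Osmr (9.44 ± 0.478), Lifr (8.59 ± 0.743), Osm (7.17 ± 1.34), Il6 (2.31 ± 1.07), Lif (0.994 ± 0.203) and Il11 (0.193 ± 0.0978). There the neighbours Il6st and Socs3, Osmr and Lifr, and Lifr and Osm overlapped. Il11ra1 thus moved from the first to the third place and Il6ra from the sixth to the fourth, with the reservation on Il11ra1 given above.

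**Figure D3:**
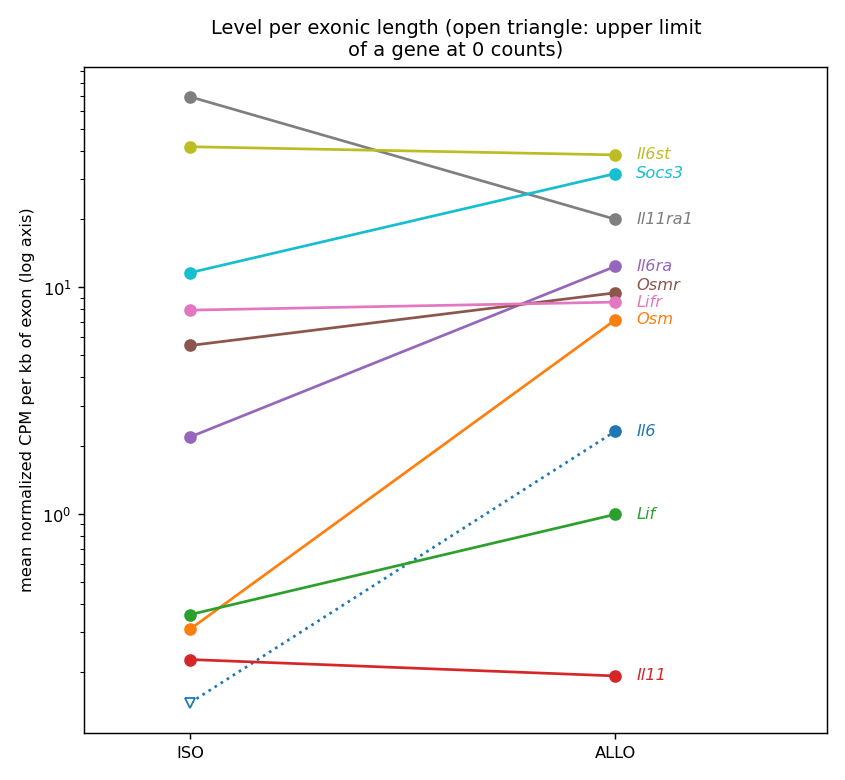
Mean normalized CPM per kilobase of exon (log axis) of the 10 genes in ISO (left) and ALLO (right), joined by a line for each gene, with an open triangle at the upper limit for Il6 in ISO, which was at 0 counts. The lines of Il11ra1 and Il6st cross between 69.1 and 41.7 CPM per kb in ISO and 20.0 and 38.3 in ALLO.

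Ratios taken within a library do not depend on the scaling between libraries. The ratio of Il6ra to Il6st per exonic length was 0.0743 and 0.0341 in ISO and 0.305 and 0.345 in ALLO. For Il11ra1 to Il6st it was 1.94 and 1.43 in ISO and 0.386 and 0.708 in ALLO. The ALLO libraries thus had more Il6ra and less Il11ra1 transcript per gp130 transcript, without overlap between groups. The reservation on the level of Il11ra1 given above holds here too, and 72.5% of all genes tested did not overlap in CPM. The ratio of Osmr to Lifr, which form alternative partners of gp130, was 0.821 and 0.574 in ISO and 1.07 and 1.13 in ALLO, and that of Lifr to Il6st overlapped (0.209 and 0.174 against 0.204 and 0.252). With 2 libraries against 2, an exact permutation test of such a ratio could not reach 0.05, and none was run.

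**Figure D4:**
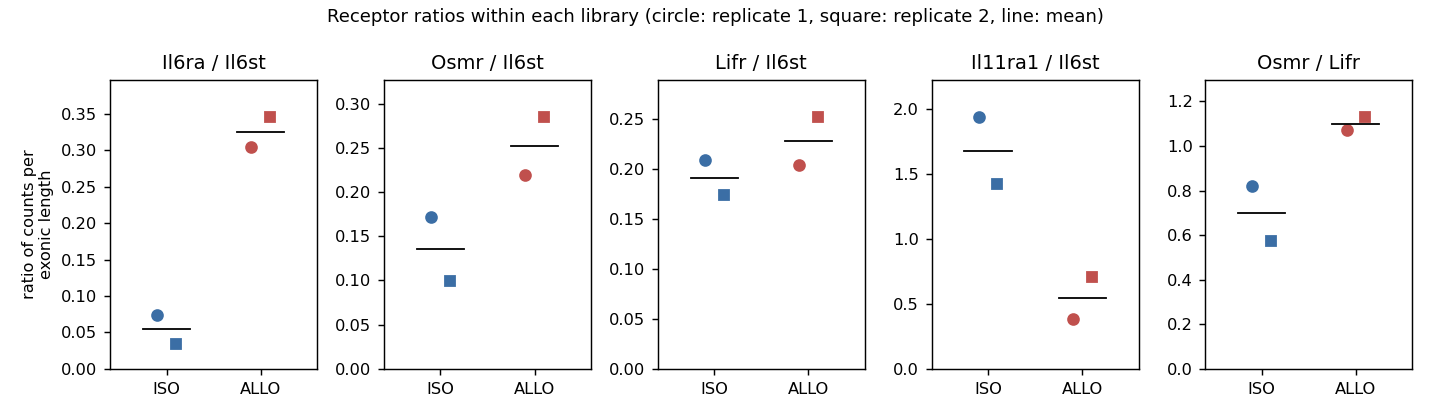
Ratios of counts per exonic length between receptor genes within each library (vertical axes, from 0), with circles for replicate 1, squares for replicate 2 and a line at the group mean. Il6ra to Il6st lies at 0.305 and 0.345 in ALLO, above 0.0743 and 0.0341 in ISO, and Lifr to Il6st is the panel in which the groups overlapped.

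Across all genes tested, 18.4% were called higher and 14.8% lower. Of 8 further ligand genes of the family, 2 rose, 1 fell, 2 did not pass and 3 had too few counts to be tested. Il27 and Ebi3, which encode the subunits of IL-27, a cytokine of antigen-presenting cells, were the genes that rose. Il27 had 0 and 3 counts in ISO and 101 and 120 in ALLO, 59.8 times as many after scaling (edgeR adjusted p = 0.0121), with a 95% interval of 13.7 to 840 for counting error only. Both ISO values lie under the floor of 6 counts, and the fitted change was 28.1-fold without ISO replicate 1, while without ISO replicate 2 the ISO count is 0 and no fold is given. Ebi3 was at 0.760 and 0.422 CPM in ISO and at 13.2 and 8.49 CPM in ALLO, 18.1-fold higher (edgeR adjusted p = 0.00600). Both are uncertain, because 23.4% of the exonic bases of Ebi3 and 10.1% of those of Il27 are shared with genes transcribed in the other direction, and no source used here says whether counting was stranded. The same holds for Cish and Pim1, described further on, with 11.5% and 14.5% of their exonic bases shared in this way, and for Tyk2 with 8.07%. Of the IL-27 receptor chain Il27ra, which pairs with gp130, 5.61 and 3.14 CPM were found in ISO and 34.7 and 24.0 CPM in ALLO, 6.69-fold more (edgeR adjusted p = 0.00900). Il27, Ebi3 and Il27ra were thus called higher in ALLO, with the reservation on Il27 and Ebi3 given above. Il6st, which encodes the gp130 partner of the Il27ra chain, did not pass (edgeR adjusted p = 0.763).

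Ctf1, which encodes cardiotrophin-1, went the other way, from 7.89 and 5.98 CPM in ISO to 0.822 and 1.72 CPM in ALLO, 5.40-fold lower (edgeR adjusted p = 0.0236, 8.32-fold without ALLO replicate 2). This call was lost without ISO replicate 1 (edgeR adjusted p = 0.0636) or ALLO replicate 1 (0.0626). Clcf1, whose product is a ligand of the CNTF receptor, was at 15.5 and 11.7 CPM in ISO and 21.2 and 19.8 CPM in ALLO and did not pass (edgeR adjusted p = 0.144).

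Cntfr, the CNTF receptor alpha chain, lay at 10.2 and 41.6 CPM in ISO and at 10.2 and 6.08 CPM in ALLO, 3.18-fold lower in the fit (edgeR adjusted p = 0.133). The size rested on ISO replicate 2: Cntfr was 5.15-fold lower when ISO replicate 1 was left out (edgeR adjusted p = 0.00347) and 1.28-fold lower when ISO replicate 2 was (0.694). It also passed with the DESeq2 Wald test (adjusted p = 0.0360). Il31ra, which lies 9.81 kb from Il6st, was at 1.46 and 0.422 CPM in ISO and at 1.54 and 0.772 CPM in ALLO (edgeR adjusted p = 0.817). The genes with too few counts were Cntf with 0, 1, 0 and 2 counts, Ctf2 with 6, 7, 0 and 0, and Il31 with 0 in every library.

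Inside the cell, 8 of 16 genes of gp130 signalling and its inhibitors were higher in ALLO, 3 were lower and 5 did not pass. Their median log2 change was 0.60. For comparison, 18.4% of all genes tested were called higher and 14.8% lower, with a median of 0.03. The adaptor gene Grb2 rose 2.12-fold, the kinase gene Tyk2 2.45-fold and the STAT5-induced inhibitor gene Cish 3.89-fold (edgeR adjusted p = 0.0124, 0.0106 and 0.0144). Lower were Ptpn11, the phosphatase SHP2 that docks on gp130, by 2.29-fold, Socs2 by 2.14-fold and the STAT3 inhibitor gene Pias3 by 1.71-fold (edgeR adjusted p = 0.0141, 0.0240 and 0.0289). Leaving out ISO replicate 1 left 3 called higher, and leaving out ISO replicate 2 left 2, and the number called lower was 1 without ALLO replicate 1, 2 without ISO replicate 1 and 0 without ISO replicate 2. Without ISO replicate 2 the calls of Grb2, Tyk2, Ptpn11, Socs2 and Pias3 were lost (edgeR adjusted p = 0.0543 to 0.126). Grb2 was also lost without ISO replicate 1 (0.0782) and Socs2 without ALLO replicate 1 (0.0825). Pias3 was further lost without ISO replicate 1 (0.148) or ALLO replicate 1 (0.0752) and with libraries scaled by size alone (0.0724).

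Stat3 itself, chosen after its values were seen, was at 199 and 220 CPM in ISO and at 242 and 275 CPM in ALLO, a log2 change of 0.30 ± 0.20 (edgeR adjusted p = 0.311). Jak1 and Jak2, the kinases bound to gp130, chosen likewise, rose 2.05- and 2.02-fold (edgeR adjusted p = 0.0268 and 0.0189), and both calls were lost without ISO replicate 1 (0.150 and 0.149) or ISO replicate 2 (0.173 and 0.0967). Socs1, an inhibitor of JAK kinases related to Socs3 and also chosen after its values were seen, was at 6.90 and 7.36 CPM in ISO and at 15.2 and 49.3 CPM in ALLO, 4.52-fold higher (edgeR adjusted p = 0.0432, 7.06-fold without ALLO replicate 1). Its call was lost in edgeR without ISO replicate 1, ISO replicate 2 or ALLO replicate 2 (2.13-fold without the last, edgeR adjusted p = 0.0679), with a filter on a mean count of 10 or more (0.0514) and with limma-voom (adjusted p = 0.0906).

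Soluble IL-6 receptor is released from cells by metalloproteases. Of 4 genes of receptor shedding, Adam17, the main sheddase of IL-6 receptor alpha in inflammation, rose from 50.3 and 61.6 CPM to 187 and 150 CPM, 3.01-fold (edgeR adjusted p = 0.00817). Adam10, a related protease, rose 1.93-fold (edgeR adjusted p = 0.0313), a call lost whenever 1 library was left out (edgeR adjusted p = 0.0505 to 0.277). Rhbdf1 and Rhbdf2 encode iRhom1 and iRhom2, rhomboid-like proteins that bring ADAM17 to the cell surface. Rhbdf1 fell from 137 and 138 CPM to 32.7 and 65.3 CPM, 2.81-fold (edgeR adjusted p = 0.0311), and Rhbdf2, chosen after its values were seen, stood at 50.6 and 32.0 CPM against 62.5 and 85.1 CPM (edgeR adjusted p = 0.0874), and passed with the DESeq2 Wald test (adjusted p = 0.0470) and without ISO replicate 1 (edgeR adjusted p = 0.0448). The Rhbdf1 call was lost when libraries were scaled by size alone (edgeR adjusted p = 0.0516).

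Among 20 genes listed as targets of STAT3 or of the acute phase response, 12 were higher in ALLO and 8 did not pass. Their median log2 change was 1.70, or 2.185 with limma-voom or the replicate block. All genes tested had a median of 0.03, with 18.4% called higher and 14.8% lower. The list was chosen with earlier results of these data known. The serpin gene Serpina3g rose from 1.75 and 2.84 CPM to 301 and 412 CPM, 155-fold (edgeR adjusted p = 0.00216); it belongs to a cluster of close copies, so its level is uncertain. Pim1, a survival kinase gene, rose 4.56-fold from 33.4 and 34.9 CPM to 151 and 161 CPM (edgeR adjusted p = 0.00340). The monocyte chemokine gene Ccl2 rose 13.4-fold and Hp, which encodes the acute phase protein haptoglobin, 9.26-fold (edgeR adjusted p = 0.00460 and 0.00477). These genes answer to other signals as well, several are expressed by macrophages and neutrophils, and the part of those cells in the rise was not tested. The number called higher was 7 without ALLO replicate 2, and the median log2 change was 2.58 without ISO replicate 1.

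The ISO libraries themselves differed in this list. Saa3, an acute phase gene, was at 352 CPM in ISO replicate 1 and 2.90 CPM in ISO replicate 2, 122-fold apart, and at 409 and 624 CPM in ALLO. Lcn2, which encodes the neutrophil and acute phase protein lipocalin-2, was at 30.8 and 1.33 CPM in ISO and at 53.3 and 58.7 CPM in ALLO. Neither passed (edgeR adjusted p = 0.533 and 0.306), but without ISO replicate 1 they were 176-fold and 41.6-fold higher in ALLO (edgeR adjusted p = 1.31e-04 and 1.17e-04). Leaving out ISO replicate 2 instead gave 1.44-fold for Saa3 and 1.79-fold for Lcn2 (edgeR adjusted p = 0.505 and 0.129), against 2.91-fold and 3.48-fold with all libraries. Both genes were chosen after their values were seen. Of the 10 family members, 8 had their larger ISO value in replicate 1, by 4.84-fold for Osm, 2.45-fold for Lif and 1.83-fold for Il6ra. The gap was only 1.14-fold for Il11ra1 and 1.01-fold for Lifr, while Il6st was lower (0.842-fold) and Il6 was at 0 in both. Marker lists varied in this, from 6 of 6 T cell to 2 of 6 endothelial genes, and the share over all genes is not given here.

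**Figure D5:**
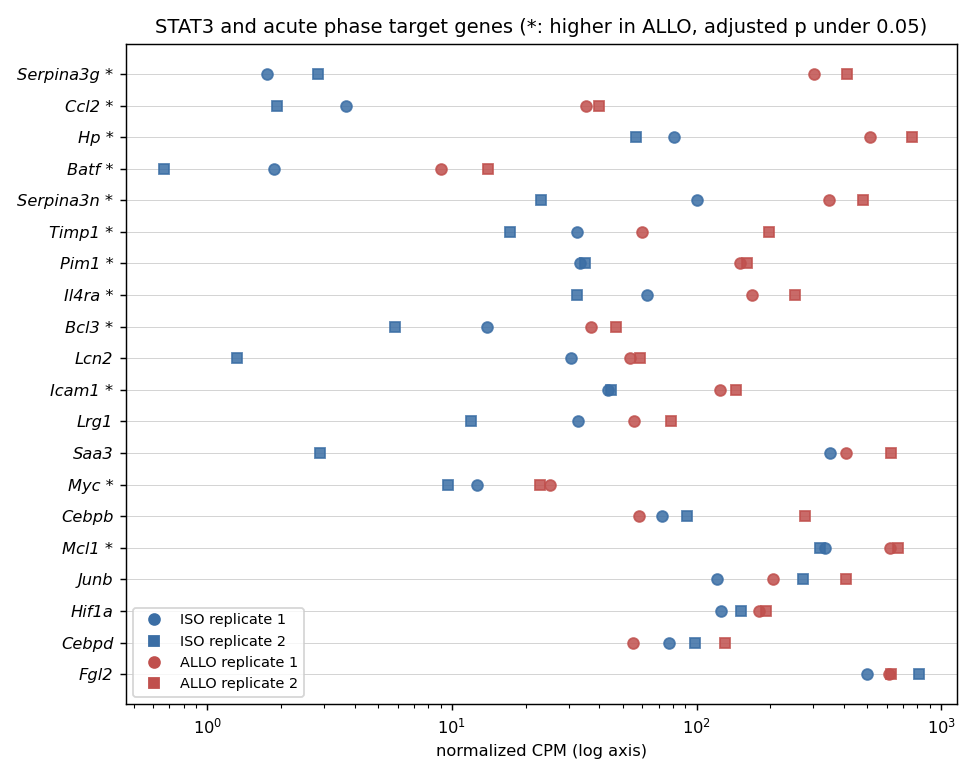
Normalized CPM (log axis) of 20 STAT3 and acute phase target genes in each library, in blue for ISO and red for ALLO, circles for replicate 1 and squares for replicate 2, with a star for genes called higher in ALLO. For Saa3 the ISO libraries stand apart at 352 and 2.90 CPM, and ISO replicate 1 lies beside the ALLO libraries.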

How the data were processed

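The deposited table holds raw counts for each gene and library in the featureCounts layout, per the file headers. The submitters' processing notes name Subread 1.6.4 with featureCounts, DESeq2 1.30.0, R 4.0.3 and the build mm10, while aligner, annotation release, strand setting and handling of multi-mapping reads were not given in the sources used here. GENCODE M21 named 54723 of 54752 IDs. Of genes with 1 to 20 counts, 68.0% to 74.6% had an even count, a pattern of both mates being counted, so the floor for a gene at 0 was 6 counts per library and counting intervals used counts divided by 2. Intervals and bounds cover counting error only.

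The filter filterByExpr with a minimum count of 10 kept 16498 genes. They were scaled by TMM (factors 0.926 to 1.09) and tested by edgeR 4.0.16 (glmQLFit, glmQLFTest) in a model of group alone, and p-values were adjusted by Benjamini-Hochberg over all of them. The members and lists were chosen with earlier results of these data known. All members were named. Of each list, up to 4 genes per direction with the smallest adjusted p were named, plus the other ligands and receptors. Some genes that this rule names are not reported here. Replicates differed beyond sampling noise (chi-square over degrees of freedom 41.6 in ISO and 139 in ALLO). Alternatives were other scalings and filters, the DESeq2 1.42.0 Wald test, limma-voom (limma 3.58.1), halved counts, removal of immunoglobulin and T cell receptor genes, a replicate block and each library left out. A fit with 1 library left assumes that it varies like the other group. The procedure was also run on simulated data, and the outcome is not reported here. That simulation gave every gene the same spread and changed only well-expressed genes, so it does not cover changes of genes near the floor. R 4.3.3 and Python 3.11.15 were used.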

Additional observations from a re-analysis of the deposited data

How the results depend on the processing

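The count of all genes called, 5469, was 3603 to 4651 with 1 library left out. In the fits with 1 library left out, 3 members were called higher without ISO replicate 2 and 4 in each of the others, and 1 was called lower in each. Il6, Osm, Il6ra and Il11ra1 kept their call and direction under all 13 alternatives. Among genes that did not pass, the log2 change turned sign for Il11 (0.14 without ISO replicate 1 and 0.23 without ALLO replicate 1, with a range of -0.86 to 0.23), for Il6st (0.0645 by library size only, and -0.35 to 0.11 with 1 library left out) and for Il31ra (-0.36 without ISO replicate 2 and -0.25 without ALLO replicate 1, with a range of -0.3624 to 1.422). The cause was not tested. Scaling by library size alone moved the median of all genes by 0.19 and gave 3546 genes higher and 1867 lower (65.5% higher, against 55.4%). Replicate numbers were shared between groups, but the deviations of same-numbered libraries correlated at only 0.0974 across genes, and nothing says that a number marks a pair. With the replicate block 4873 genes were called, and the same 4 members were higher and 1 lower, and among the other named genes the call of Pias3 was lost (edgeR adjusted p = 0.0652). Il11 was not tested after halving, with a mean count of 10 or more, or after removal of immunoglobulin genes. Depth limits Il11 and the genes at 0.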
